A study of Oryza sativa with 36 samples.

Results

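The genes described here belong to the synthesis and the signalling of jasmonate, and they are 4 of the 57258 probe sets tested on the Affymetrix rice array. CYP74A2, an allene oxide synthase, CM-LOX1, a lipoxygenase, and JAZ9, a jasmonate ZIM-domain (JAZ) repressor, were chosen by symbol or synonym in the gene tables. The name JAZ9 is listed there for 2 genes, TIFY11A and TIFY10C. Both were kept, and TIFY11A is called JAZ9 below and TIFY10C, whose other name is JAZ8, is called JAZ8. Each gene had 1 probe set. In the gene table they are LOC4332121 (CYP74A2), LOC4345993 (CM-LOX1), LOC4331832 (JAZ9) and LOC4347164 (JAZ8).

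The seedlings were PL177, which is 1 salt-tolerant pyramiding line bred from introgression lines of IR64, and IR64 itself, the moderately sensitive parent that gave the background. At the 3-leaf stage they were given salt+ABA (140 mM NaCl with 10 µM abscisic acid) or salt (140 mM NaCl), or were kept as the control in the same nutrient solution with neither, and the labels give 4 d of treatment. Shoots, which the labels call leaf, and roots were taken from each, so that there were 12 groups of 3 arrays, 36 in all, which the methods describe as independent biological replicates. The question of the comparisons was how salt, and ABA given with salt, changed expression in the tolerant line and in its parent.

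Jasmonate is a hormone made from fatty acids of plastid membranes, known for its part in defence against insects and pathogens, in wounding responses and in growth under stress. Lipoxygenases add oxygen to the fatty acid, allene oxide synthase and allene oxide cyclase turn the product into a ring-shaped precursor, and 12-oxophytodienoate reductases reduce that precursor before it is shortened to jasmonic acid. JAR1 joins jasmonic acid to isoleucine. The conjugate is perceived by COI receptors, which mark JAZ repressors for breakdown and so free the transcription factors that JAZ proteins hold back. Many JAZ genes are themselves switched on by jasmonate. In rice, JAZ9 has been studied for its part in salt tolerance and JAZ8 for its part in resistance to bacterial blight.

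The values are intensities on a linear scale, with array medians between 56.8 and 64.3, and between 29.2% and 33.1% of the values of an array lay below 32. Arrays of a group correlated with r between 0.975 and 0.998 across probe sets. As a check of the organ labels, all 12 probe sets of leaf markers (RBCS, RCA, CAB2R, FBP1) were higher on every shoot array than on any root array. Of 12 probe sets of root markers, 7 were higher on every root array than on any shoot array, and the other 5 overlapped. The summed intensity of the leaf markers was 142008 to 155801 in shoots and 7689 to 43869 in roots, and no leaf marker was at 0 on any array. Fold changes below are on the log2(intensity + 32) scale, which understates the change of dim genes. A gene is called changed where it changed by over 2-fold and its p from limma, adjusted by Benjamini and Hochberg's method over all 57258 probe sets, was under 0.05. Arrays of 2 treatments did not overlap, in either direction, for 20.5% to 38.8% of all probe sets in each shoot comparison. In roots these shares were 23.8% to 35.6%.

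In shoots, salt lowered CYP74A2, CM-LOX1 and JAZ9 strongly in both genotypes, whereas JAZ8 did not pass the test. Thus 3 of the 4 genes were called lower under salt in PL177, where 1.27% of all probe sets were, and the same 3 in IR64, where 1.38% were. Under salt+ABA, CYP74A2 and JAZ9 were still called lower than in the control, 2 of 4 genes in PL177 and in IR64, against 0.732% and 0.777% of all probe sets. Between salt+ABA and salt, 1 of the 4 genes, CM-LOX1, was called higher in both genotypes, against 0.197% of all probe sets in PL177 and 0.272% in IR64. None of the 4 genes was called in roots under either treatment, with changes between -1.35 and 0.66 on the log2 scale. In each root comparison 0.327% to 1.1% of all probe sets were called in a given direction, so that no call among 4 is near these shares. CM-LOX1 was too dim in roots for a response to be measured.

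**Figure D1:**
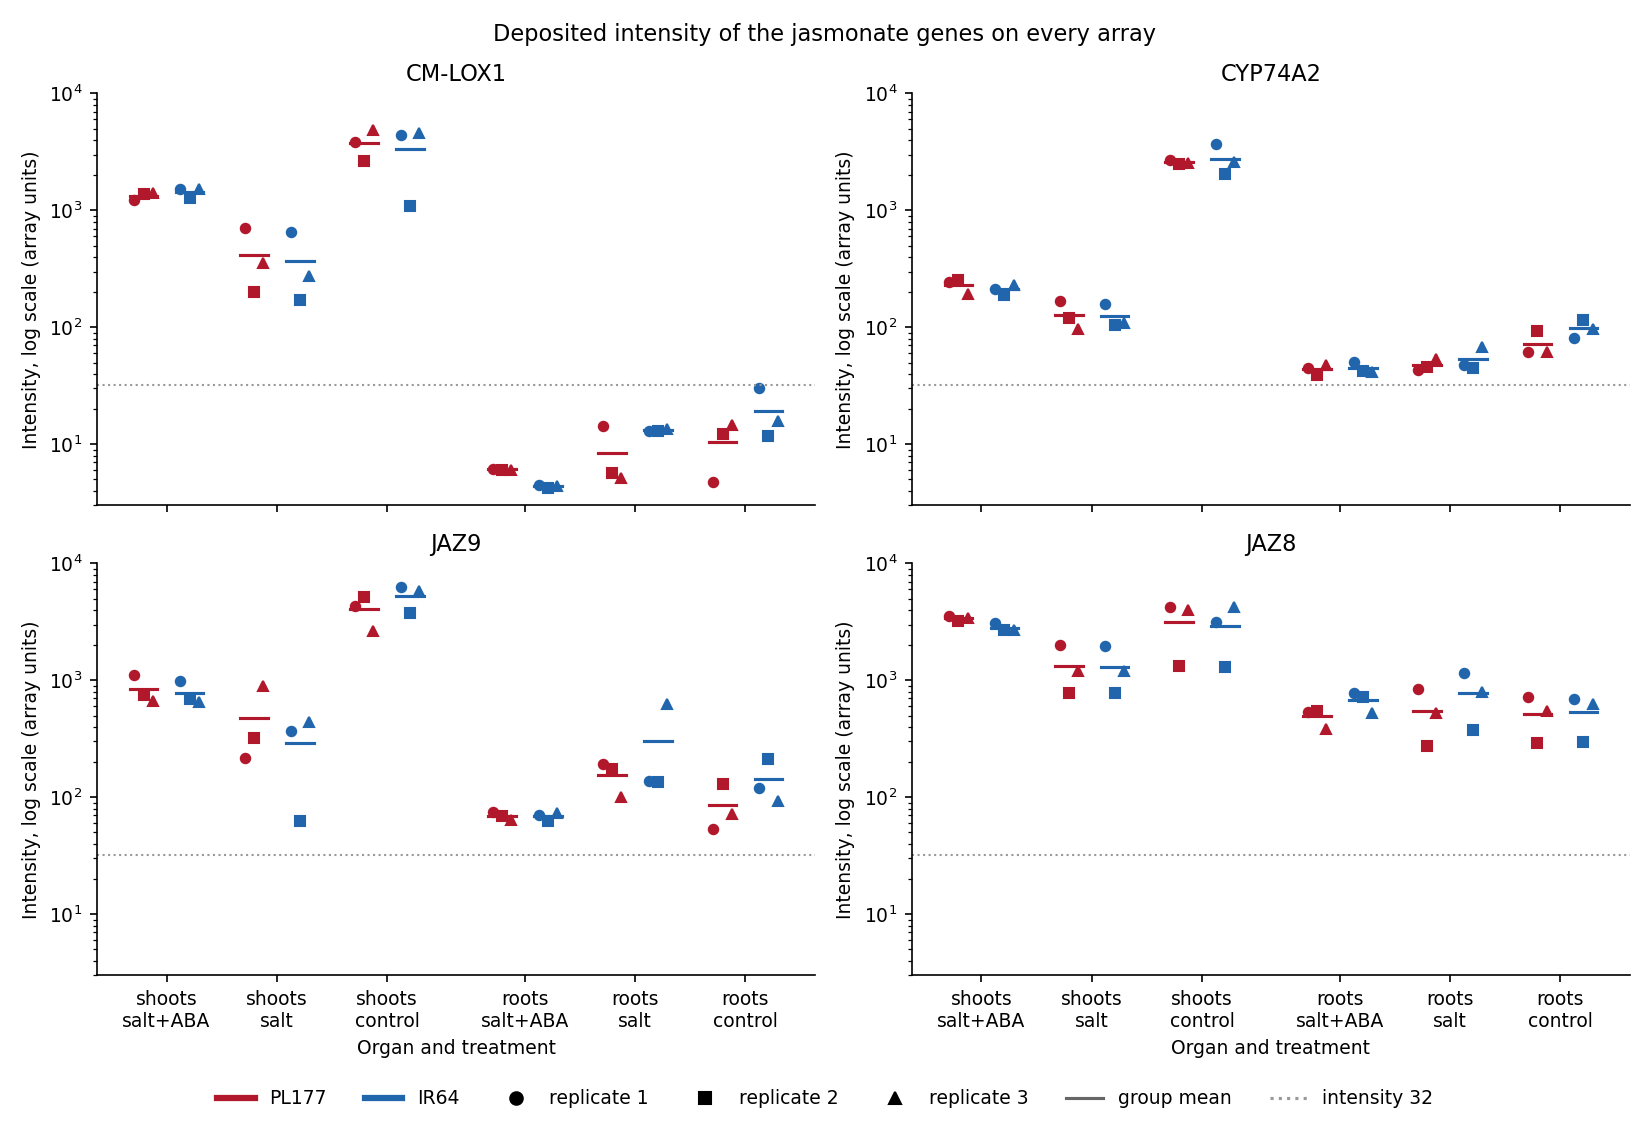
Deposited intensity (array units, log axis) of CM-LOX1, CYP74A2, JAZ9 and JAZ8 in shoots and roots under salt+ABA, salt and the control. Each symbol is 1 array, its shape gives the replicate number, its colour the genotype, and the bar is the group mean of 3 arrays. The CYP74A2 arrays of salted shoots lie between 97.5 and 169, all below the control shoots, which start at 2029.6. CM-LOX1 in roots stays below the dotted line at 32.

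CM-LOX1 stands at the first step of the pathway described above. In PL177 shoots its intensity was 703, 199 and 355 under salt, against 3864, 2652 and 4829 in the control. In IR64 shoots it was 651, 173 and 277 under salt, against 4416, 1098 and 4636 in the control. No salted array reached any control array in either genotype, although the second control array of IR64 lay far below the other two. Salt lowered CM-LOX1 by 8.93-fold in PL177 (log2 change -3.16 ± 0.51 SE, adjusted p = 0.00137) and by 7.86-fold in IR64 (-2.98 ± 0.51 SE, adjusted p = 0.00204). Without control replicate 2 the IR64 change was -3.59. With only the 6 arrays compared in the fit, the IR64 change had an adjusted p of 0.0963.

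Under salt+ABA, CM-LOX1 was at intermediate levels with little spread between arrays. In PL177 shoots the intensities were 1226, 1376 and 1419, and those of IR64 shoots were 1531, 1267 and 1533. All 6 arrays lay above every salted shoot array of either genotype. Within a genotype, salt+ABA and salt arrays did not overlap for 38.8% of all probe sets in PL177 and 32.2% in IR64. The rise over salt was 3.44-fold in PL177 (log2 change 1.78 ± 0.51 SE, adjusted p = 0.0382) and 4.19-fold in IR64 (2.07 ± 0.51 SE, adjusted p = 0.0235). Relative to the control the log2 change was -1.38 (adjusted p = 0.143, 95% interval -2.48 to -0.28) in PL177 and -0.91 (adjusted p = 0.343, -2.01 to 0.19) in IR64, and neither was called. In PL177 all salt+ABA arrays lay below all control arrays, which started at 2652. The PL177 change was called by limma with only the arrays compared (adjusted p = 0.0284), all 36 arrays in the fit (0.0265) or a replicate block (0.047). The mean under salt+ABA was 35.5% of the control mean in PL177 shoots and 42.7% in IR64 shoots, where the mean under salt was 11.1% and 10.8% of it. Both calls against salt are close to the limit. In PL177 the call was lost without any 1 of the salt+ABA arrays, without salt replicate 2 or 3 or without salt+ABA replicate 3 of IR64, and the log2 change then lay between 1.39 and 1.83. In IR64 it was lost without any 1 of the salt+ABA arrays or without salt replicate 2 or 3, with a log2 change between 1.66 and 2.16.

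In roots CM-LOX1 was dim throughout, at 4.20 to 30.6 on the 18 arrays, so that the values there lay below the 32 that was added before log2 was taken. Shoots exceeded roots in the control by 76.6-fold in PL177 and 49.1-fold in IR64, and these are understated for the same reason. Under salt the excess was 9.67-fold in PL177 and 7.60-fold in IR64. At these levels a root response of CM-LOX1 was not measurable, so its responses are not compared between the organs, and the other 3 genes are.

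CYP74A2 makes the allene oxide from the product of lipoxygenase, and its fall under salt had the smallest standard error of the 4 genes. In PL177 shoots its intensity was 169, 119 and 97.5 under salt, against 2692, 2499 and 2546 in the control. In IR64 shoots it was 158, 104 and 109 under salt, against 3698, 2029.6 and 2596 in the control. The groups were far apart in both genotypes. Salt lowered CYP74A2 by 16.0-fold in PL177 (log2 change -4.00 ± 0.18 SE, adjusted p = 1.23e-07) and by 16.7-fold in IR64 (-4.06 ± 0.18 SE, adjusted p = 4.96e-08).

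ABA given with salt left CYP74A2 low in shoots. The intensities under salt+ABA were 244, 254 and 192 in PL177 and 215, 191 and 232 in IR64. These arrays lay above all salted shoot arrays and far below all control shoot arrays. Relative to the control the level was 10.1-fold lower in PL177 (log2 change -3.33 ± 0.18 SE, adjusted p = 7.63e-07) and 10.9-fold lower in IR64 (-3.45 ± 0.18 SE, adjusted p = 3.22e-07). Relative to salt it was 1.59-fold higher in PL177 (adjusted p = 0.0312) and 1.53-fold higher in IR64, both under the 2-fold limit. The mean under salt+ABA was 8.93% of the control mean in PL177 and 7.67% in IR64, and the mean under salt was 4.98% and 4.47% of it.

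In roots the treatment changes of CYP74A2 were all below 2-fold and none was called. In PL177 roots its intensity was 44.5, 39.3 and 47.6 under salt+ABA and 43.1, 45.4 and 53.9 under salt, against 62.0, 93.0 and 61.6 in the control. In IR64 roots it was 50.7, 42.0 and 41.9 under salt+ABA and 47.9, 45.2 and 67.7 under salt, against 80.9, 116 and 97.6 in the control. The treated arrays lay below the control arrays in each genotype. Under salt the log2 change was -0.36 (adjusted p = 0.0787) in PL177 and -0.63 (adjusted p = 0.00474) in IR64, and under salt+ABA it was -0.44 (adjusted p = 0.032) in PL177. The largest of these changes was -0.77 ± 0.13 (SE, adjusted p = 0.000982) for salt+ABA against the control in IR64, and with 8 added in place of 32 it was -1.02 and was called. The salt response of shoots minus that of roots was -3.50 ± 0.23 in PL177 and -3.28 ± 0.23 in IR64 (SE, adjusted p = 8.78e-11 and 4.93e-10), where 2.72% and 2.93% of all probe sets had a called difference of this kind. For salt+ABA against the control this difference was -2.77 in PL177 and -2.54 in IR64 (adjusted p = 4.48e-09 and 1.90e-08), and CYP74A2 was the 1 of the 3 genes called for it in each genotype, against 2.35% and 1.95% of all probe sets. JAZ9 was called for it as well with only the arrays compared in the fit (-1.93 in PL177, -1.83 in IR64) or with the larger pseudocount (-1.86 and -1.98).

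JAZ9 is one of the repressors that the receptor marks for breakdown. In PL177 shoots its intensity was 216, 321 and 899.7 under salt, against 4322, 5196 and 2644 in the control. In IR64 shoots it was 370.2, 62.2 and 441 under salt, against 6277, 3740.2 and 5781 in the control. Salted and control arrays did not overlap, but single arrays strayed, the third of salted PL177 to the high side and the second of salted IR64 to the low side. Salt lowered JAZ9 by 8.81-fold in PL177 (log2 change -3.14 ± 0.55 SE, adjusted p = 0.00234) and by 18.8-fold in IR64 (-4.23 ± 0.55 SE, adjusted p = 0.000257). Without salt replicate 2 the IR64 change was -3.51. The difference between these responses, PL177 minus IR64, was 1.09 with a 95% interval of -0.58 to 2.77 (adjusted p = 1) and was not called.

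Under salt+ABA the JAZ9 arrays of shoots agreed more closely. The intensities were 1103, 747 and 672 in PL177 and 997, 697 and 658 in IR64. All lay below every control shoot array. JAZ9 was 4.43-fold lower than in the control in PL177 (log2 change -2.15 ± 0.55 SE, adjusted p = 0.0373) and 6.27-fold lower in IR64 (-2.65 ± 0.55 SE, adjusted p = 0.012). The PL177 call was lost without any 1 of its salt+ABA arrays, without control replicate 1 or 2 or without salt+ABA replicate 2 or 3 of IR64, with log2 changes between -2.37 and -1.92. The IR64 call was lost without its salt+ABA replicate 2 (-2.58, adjusted p = 0.0539) or 3 (-2.54, adjusted p = 0.0558). Against salt the change was 0.99 in PL177 (adjusted p = 0.29) and 1.58 in IR64 (adjusted p = 0.0893), and the salt+ABA and salt arrays overlapped in PL177. The mean under salt+ABA was 20.7% of the control mean in PL177 and 14.9% in IR64, and that under salt was 11.8% and 5.53% of it.

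In roots the order of the JAZ9 values differed from that in shoots. In PL177 roots its intensity was 74.7, 69.0 and 64.3 under salt+ABA and 192, 175 and 101 under salt, against 54.0, 131 and 71.8 in the control. In IR64 roots it was 71.2, 63.0 and 72.8 under salt+ABA and 138, 135 and 633 under salt, against 119, 215 and 92.1 in the control. Salted arrays lay above all salt+ABA arrays and overlapped the control arrays in both genotypes. For salt+ABA against salt the log2 change was -0.82 (adjusted p = 0.312) in PL177 and -1.35 (adjusted p = 0.0655) in IR64. The IR64 change was called with 8 added in place of 32 (-1.57, adjusted p = 0.046) and with dim probe sets left out (adjusted p = 0.0415).

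The leaf markers moved in roots in the same order. Of the 12 leaf marker probe sets, 11 were lower on all salt+ABA root arrays than on all salted root arrays in PL177 and 11 in IR64, where the arrays of 27.1% and 23.8% of all probe sets did not overlap in either direction. Their summed intensity in roots was 7689 to 10856 under salt+ABA and 28885 to 33381 under salt, against 11745 to 24610 in the control, in PL177. In IR64 roots it was 8932 to 12424 under salt+ABA and 25301 to 43869 under salt, against 15677 to 23891 in the control. The salted IR64 root array with the JAZ9 intensity of 633 was the one with 43869. In control roots the array with the highest sum also had the highest JAZ9, 131 in PL177 and 215 in IR64. In salted PL177 roots the order was the reverse, with sums of 28885, 31313 and 33381 beside JAZ9 of 192, 175 and 101. The part of the leaf markers in the root values of JAZ9, and of the other genes below, was not tested.

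The organs differed in the salt response of JAZ9 by -3.70 ± 0.72 (SE, adjusted p = 0.00142) in PL177 and by -4.73 ± 0.72 (adjusted p = 7.73e-05) in IR64. With CYP74A2, 2 of the 3 genes compared had a called difference of this kind in each genotype. For salt+ABA against salt, none of the 3 was called in PL177, where 2.67% of all probe sets were, although JAZ9 was with only the arrays compared (1.78, adjusted p = 0.0464) and JAZ8 with a replicate block (1.40). In IR64, 1 was called, JAZ9 (2.91, adjusted p = 0.00842), where 2.84% of all probe sets were. This call was lost with only the arrays compared (adjusted p = 0.0508), and the value was 2.19 without shoot salt replicate 2 and 2.24 without root salt replicate 3.

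**Figure D2:**
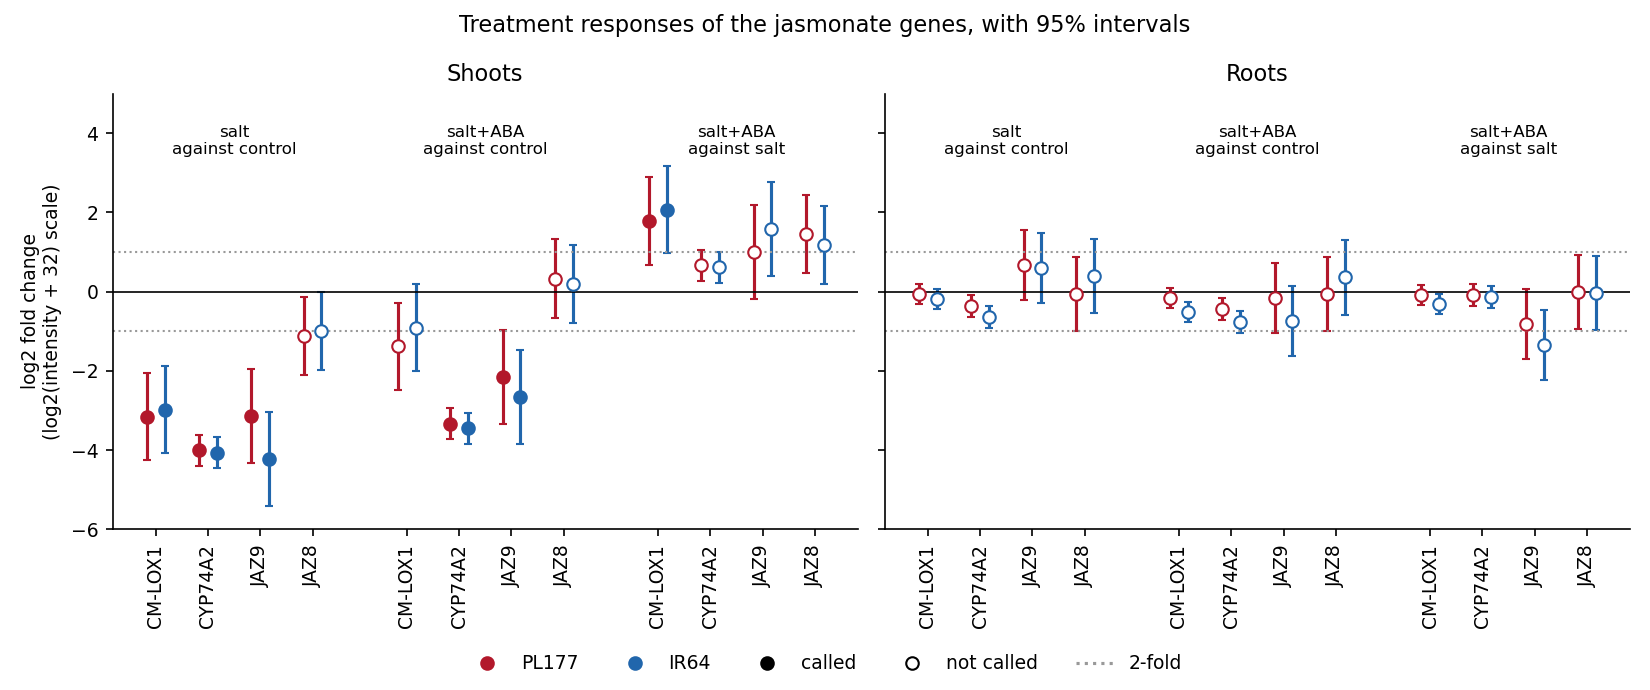
Log2 fold change with 95% interval (y axis, log2(intensity + 32) scale) of the 4 genes for salt against control, salt+ABA against control and salt+ABA against salt, in shoots (left) and roots (right) of PL177 and IR64. Filled symbols passed limma's adjusted p of 0.05 and the 2-fold limit shown by dotted lines. In shoots CYP74A2 lies at -4.00 and -4.06 under salt with narrow intervals, and no root symbol is filled.

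JAZ8 differed from the others in its spread. In PL177 shoots its intensity was 2013, 781 and 1199 under salt, against 4202, 1318 and 4017 in the control. In IR64 shoots it was 1949, 782 and 1208 under salt, against 3176, 1298 and 4258 in the control. Salted and control arrays overlapped in both genotypes, but each salted array lay below the control array of the same number. The log2 change was -1.12 ± 0.46 (SE, adjusted p = 0.135) in PL177 and -1.0 ± 0.46 (adjusted p = 0.218) in IR64, and neither was called. These fits ignore the replicate number. With a replicate block in limma the PL177 change was called (adjusted p = 0.0263), and that of IR64 stayed just under the 2-fold limit. Without the shoot control arrays numbered 2, an alternative chosen after seeing the data, the change was -1.62 (adjusted p = 0.00581) in PL177 and -1.44 (adjusted p = 0.0122) in IR64, and both were called.

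Under salt+ABA the JAZ8 arrays were close together, above the lowest control array and below the other two in each genotype. In PL177 shoots they read 3564, 3245 and 3398, and the IR64 shoots read 3068, 2692 and 2705. All 6 lay above every salted shoot array. The log2 change against salt was 1.45 ± 0.46 (SE, adjusted p = 0.0573) in PL177 and 1.18 ± 0.46 (adjusted p = 0.127) in IR64. Against the control it was 0.33 with a 95% interval of -0.65 to 1.32 in PL177 and 0.18 with -0.80 to 1.17 in IR64. The mean under salt+ABA was 107% of the control mean in PL177 and 96.9% in IR64, and that under salt was 41.9% and 45.1% of it. As shares of the control mean in shoots, salt+ABA therefore left CYP74A2 lowest, then JAZ9, CM-LOX1 and JAZ8, in both genotypes.

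In roots JAZ8 lay between 276 and 1161 on all arrays, and its log2 changes between treatments were within -0.05 and 0.40 with adjusted p of 0.643 or more. JAZ8 was brighter in shoots than in roots in the control by 4.47-fold in PL177 and 4.05-fold in IR64. Shoots exceeded roots in all 4 genes in the control, and all 4 were called in each genotype, against 8.28% of all probe sets in PL177 and 8.14% in IR64. Under salt 1 gene, CM-LOX1, was called in each genotype, against 7.41% and 7.38%. In PL177 the other three were close to the limits (CYP74A2 0.99, JAZ9 1.22 with adjusted p = 0.0506, JAZ8 1.13 with adjusted p = 0.0534). All 3 were called with 8 added in place of 32 (1.26, 1.34 and 1.17) and with median centring (1.02, 1.27 and 1.28), and in IR64 CYP74A2 was called with 8 added (1.14). JAZ9 under salt was at 8.04 in IR64 shoots and 8.03 in IR64 roots (mean log2(intensity + 32)). Under salt+ABA all 4 were called again, against 8.41% in PL177 and 8.33% in IR64.

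Across the 12 groups the levels fell into a few tiers, given here as mean log2(intensity + 32) with all arrays normalized together. CYP74A2 was highest in control shoots (11.22 in IR64 and 11.17 in PL177), followed by salt+ABA shoots (7.96 in PL177 and 7.90 in IR64) and salted shoots (7.31 in PL177 and 7.30 in IR64), and these shoot tiers did not overlap each other. The 6 root groups came last, between 7.04 and 6.24. Salted IR64 shoots overlapped control IR64 roots, the first of them, and all later neighbours overlapped. CM-LOX1 was at 11.66 and 11.30 in control shoots of PL177 and IR64. The control shoots of IR64, whose array numbered 2 was at 10.10, overlapped the salt+ABA shoots of IR64 (10.41) and PL177 (10.32). Those of PL177, at 11.26 or more, lay above all salt+ABA shoots. Salted shoots stood apart below them at 8.61 in PL177 and 8.43 in IR64, and the root groups lay at 5.68 or less.

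JAZ9 had a single gap in its order, between control shoots (12.15 in IR64 and 11.75 in PL177) and all other groups. From salt+ABA shoots (9.67 in PL177 and 9.57 in IR64) down to salt+ABA roots (6.66 in both), each group overlapped the next. JAZ8 had its highest mean in salt+ABA shoots of PL177 (11.62), whose arrays did not overlap those of IR64 (11.34). In this comparison of the genotypes the arrays of 12.2% of all probe sets did not overlap. Single control shoot arrays reached 11.81 in PL177 and 11.83 in IR64. All later neighbours overlapped, down to 9.08 in salt+ABA roots of PL177.

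No difference between PL177 and IR64 in these genes passed the test. None of the 4 genes was called between the genotypes in shoots under salt+ABA, salt or the control, where 0.114%, 0.119% and 0.112% of all probe sets were. None was called in roots, where the shares were 0.114%, 0.117% and 0.107%. The 24 differences, PL177 minus IR64, ran from -0.58 to 0.69 on the log2 scale, 2 had an unadjusted p below 0.05, and the smallest adjusted p was 0.702. The intervals reached -1.59 and 1.88, so that differences of more than 2-fold were not excluded for the genes with a wide spread.

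No difference between the genotypes in a response passed the test either. For salt against control, the difference between PL177 and IR64 was called for 0% of all probe sets in shoots and 0.00175% in roots, and for none of the 4 genes. For salt+ABA against control the shares were 0.00349% and 0.00175%, and for salt+ABA against salt 0% and 0%, again with none of the 4 genes. The 24 differences ran from -0.59 to 1.09 with the smallest unadjusted p at 0.0535, and their intervals reached -2.27 and 2.77.

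The spread of JAZ8 went with the replicate number in the labels. In all 8 salt and control groups, of both organs and both genotypes, the array numbered 2 was the lowest, and relative to the mean of the other two it lay between -1.47 and -0.90 on the log2 scale. In the 4 salt+ABA groups the same quantity lay between -0.12 and 0.24. Of all 57258 probe sets, 115 or 0.201% had the array numbered 2 lowest in all 8 groups, 49 had the array numbered 1 and 5 the array numbered 3. Among the 34 other jasmonate genes described below, 6 had it, namely JAZ5, JAZ6, JAZ7, JAZ12, AOC and OPR7.

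CM-LOX1 had its lowest array at number 2 in all 4 salt and control groups of shoots, where 3.41% of all probe sets did. CYP74A2 and JAZ9 showed no such regularity, with number 2 lowest in 2 and 3 of the 8 groups. Across the 36 arrays, the deviations of CM-LOX1 from its group means had r = 0.64 with those of JAZ8, whereas CYP74A2 with JAZ8 had 0.10 and JAZ9 with JAZ8 had -0.01. These are descriptions over arrays that share their groups, with no test. The sources used here do not say what the replicate number stands for beyond its label.

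**Figure D3:**
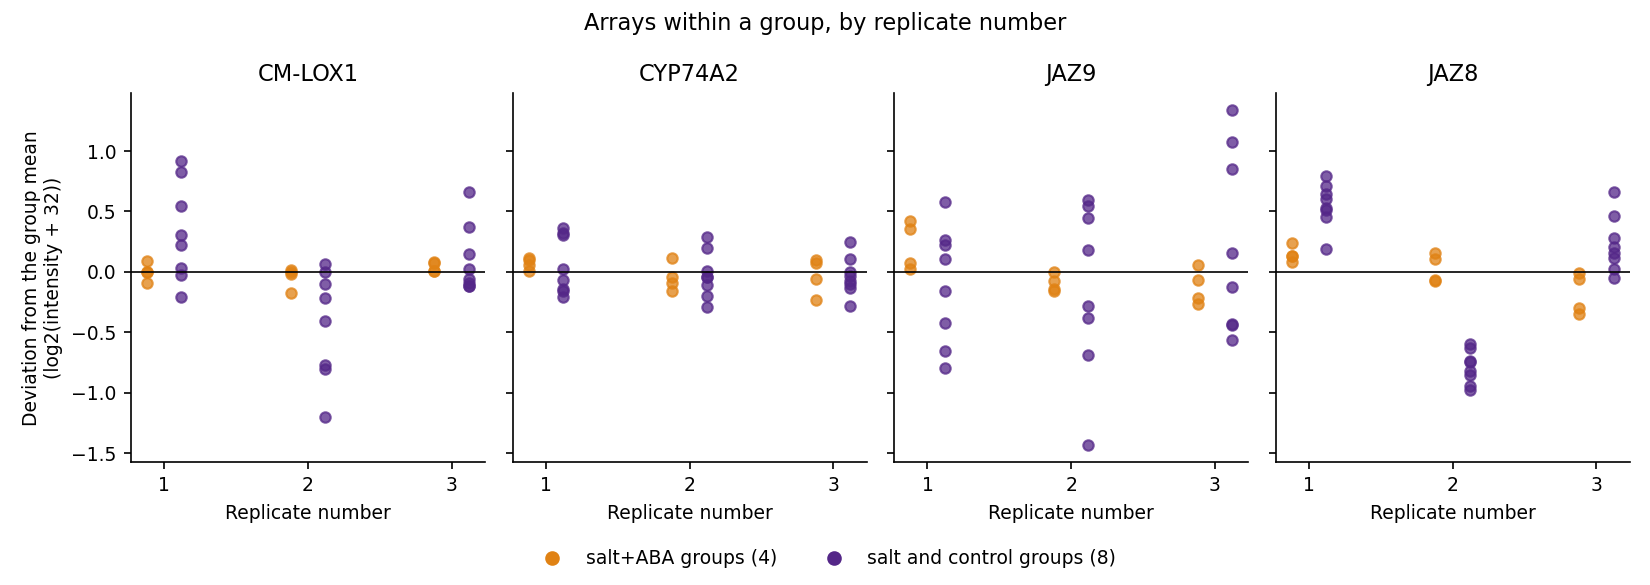
Deviation of each array from the mean of its group (y axis, log2(intensity + 32)) by replicate number (x axis) for CM-LOX1, CYP74A2, JAZ9 and JAZ8. Each point is 1 array, orange for the 4 salt+ABA groups and purple for the 8 salt and control groups. For JAZ8 all 8 purple points of number 2 lie below 0, and the orange ones lie near 0.

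Of 37 other genes named for the enzyme families and signalling proteins of the jasmonate pathway, 34 had a probe set. The probe set with the highest mean was used for each. In shoots under salt, 2 of the 34 were called lower in PL177 and 4 in IR64, where 1.27% and 1.38% of all probe sets were. In each genotype 1 was called higher, where 0.983% of all probe sets were called higher in PL177 and 0.968% in IR64. The list's median log2 change was -0.58 for PL177 and -0.46 for IR64, beside medians of -0.0070 and 0.0021 over all probe sets, and 29 and 27 of the 34 values were negative. The list was written with earlier results of these data known. Its genes were matched by name, and whether each enzyme serves jasmonate synthesis was not tested. LOX3, for example, is also named r9-LOX1.

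CYP74A1 and CYP74A3 are allene oxide synthases like CYP74A2, and they moved in opposite directions in salted shoots. CYP74A1 averaged 1396 ± 461 under salt and 5212 ± 910 in the control in PL177 shoots (SD, n = 3 each), a log2 change of -1.87 (adjusted p = 0.00663), and its change in IR64 was -2.17 (adjusted p = 0.00269). CYP74A3 averaged 322 ± 184 under salt and 72.8 ± 50.9 in the control in PL177 shoots, a log2 change of 1.75 (adjusted p = 0.00943), and in IR64 it was 381 ± 76.8 under salt and 62.9 ± 33.8 in the control, a change of 2.14 (adjusted p = 0.00288). Its control and salted arrays are therefore in the reverse order to those of CYP74A1 and CYP74A2.

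The lipoxygenase CM-LOX2, whose gene is the direct neighbour of CM-LOX1 on chromosome 8, was called lower in shoots under both treatments by the brightest of its 3 probe sets. Its log2 change under salt was -2.16 in PL177 (adjusted p = 0.00859) and -1.84 in IR64 (adjusted p = 0.0229). Under salt+ABA it was -2.15 (adjusted p = 0.0181) and -2.26 (adjusted p = 0.012) against the control, whereas CM-LOX1 was not called there. The other 2 probe sets of CM-LOX2 were not called, at 0.04 and -0.12 under salt in PL177 and -0.12 and -0.18 in IR64, and at -0.67 and -0.42 and at -0.80 and -0.44 under salt+ABA. CM-LOX2 was the only gene of the list called for salt+ABA against control in shoots. It was the 1 of 34 called lower in each genotype, where 0.732% of all probe sets were in PL177 and 0.777% in IR64. None was called higher, where 0.309% of all probe sets were in PL177 and 0.314% in IR64. The lipoxygenase LOX1.1 (-2.22, adjusted p = 0.0197) and the reductase gene OPR4 (-1.28, adjusted p = 0.00442) were called lower under salt in IR64 shoots, and in PL177 their changes were -1.68 (adjusted p = 0.0615) and -0.81 (adjusted p = 0.0459).

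Between salt+ABA and salt, CYP74A3 was called lower in shoots of PL177 (-1.92, adjusted p = 0.00711) and IR64 (-2.05, adjusted p = 0.0068), 1 of 34 genes in each, where 0.513% and 0.475% of all probe sets were. CYP74A1 was called higher in IR64 (1.68, adjusted p = 0.0171) and had a change of 1.23 in PL177. The list had a median of 0.29 in PL177 and 0.37 in IR64, with 25 and 26 of 34 values positive, beside 0.0070 and 0.0017 over all probe sets. By the brightest probe set of each, none of the 11 other JAZ genes was called in shoots in any of the 6 treatment comparisons. A dimmer probe set of JAZ10 was called lower under salt in IR64 shoots (-2.50, adjusted p = 0.0339) and had -1.34 (adjusted p = 0.237) in PL177. Among the brightest probe sets JAZ5, named after its values were seen, had the lowest values, with -2.19 in PL177 (adjusted p = 0.0871) and -2.22 in IR64 (adjusted p = 0.0987) under salt. The 3 COI receptor genes lay between -0.45 and 0.54 in shoots, and AOC, JAR1 and NINJA1 were not called either.

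**Figure D4:**
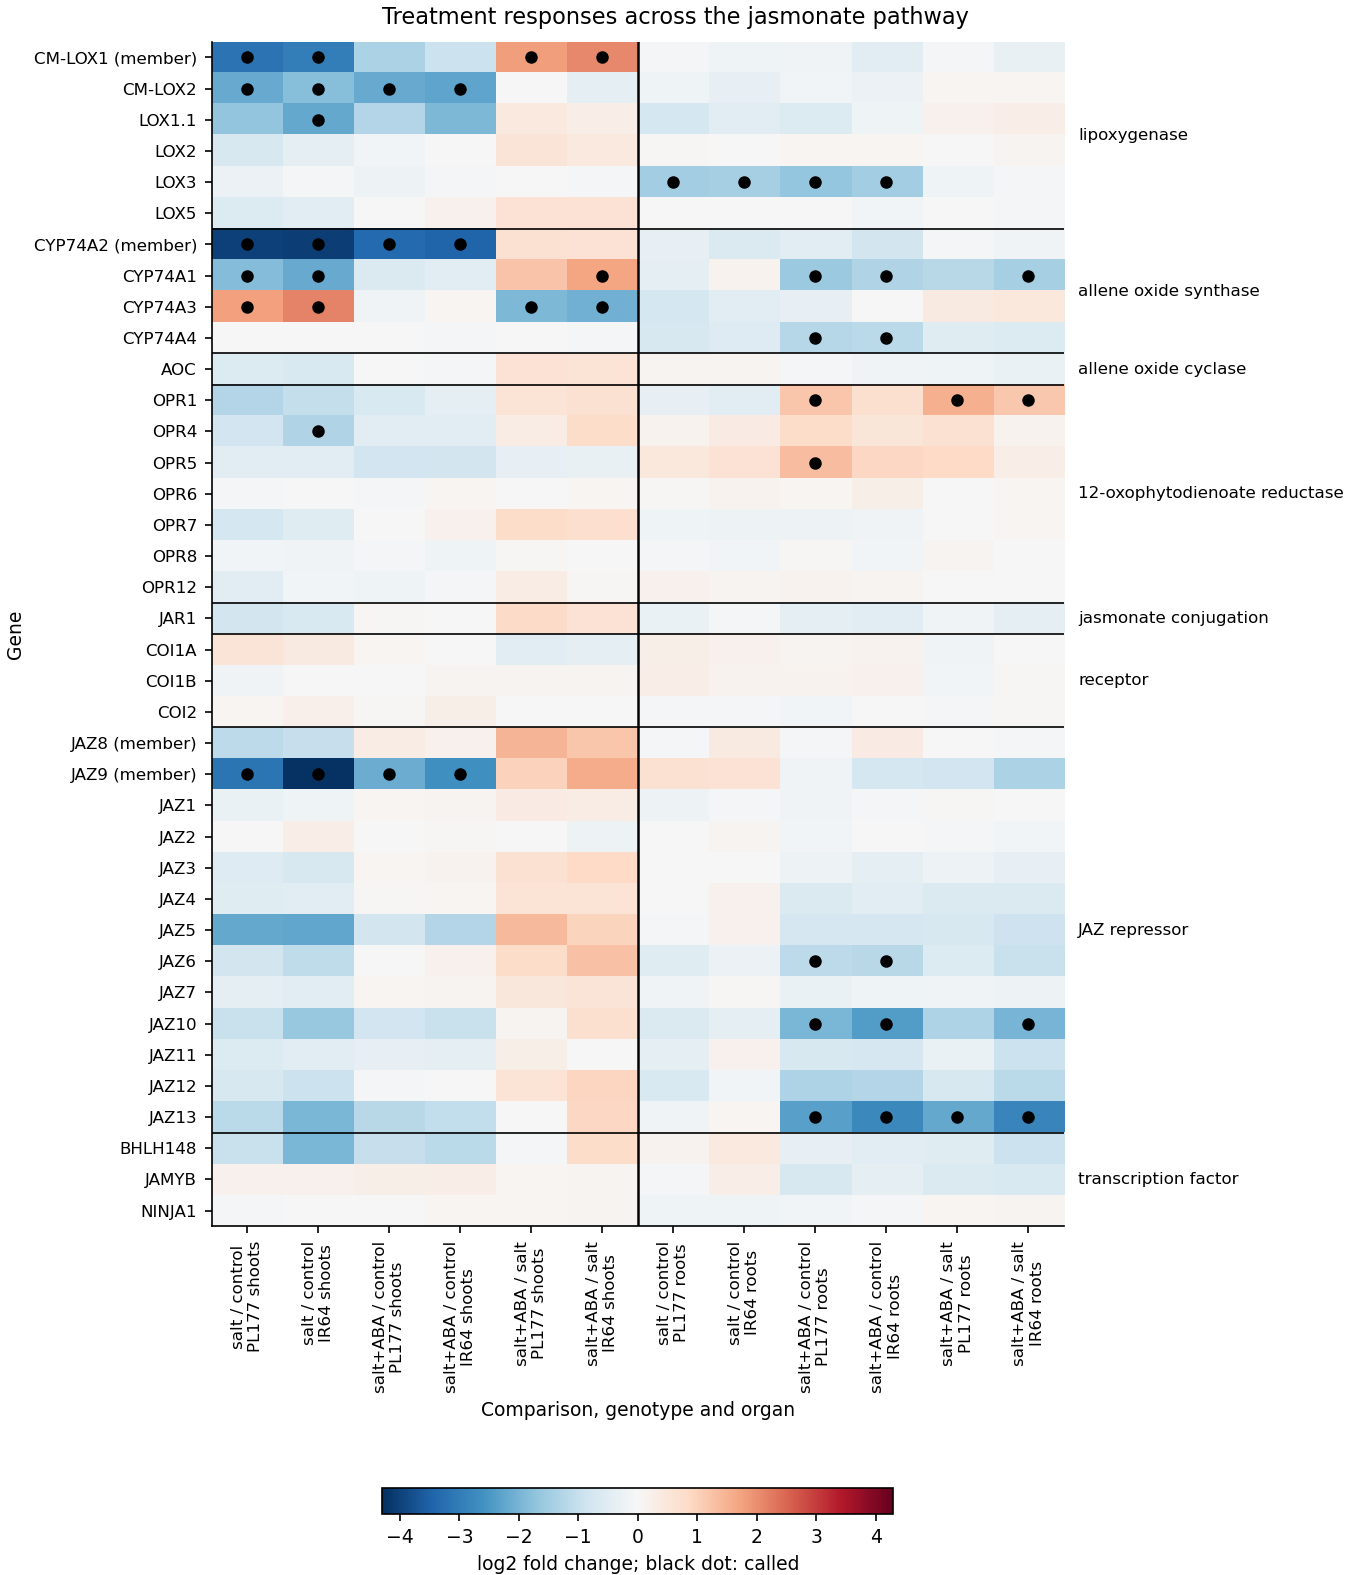
Log2 fold change (colour) of 38 jasmonate genes (rows, grouped by role) in the 12 treatment comparisons (columns, shoots left of roots, PL177 left of IR64). Black dots mark calls by limma at an adjusted p of 0.05 and 2-fold. CYP74A2, CM-LOX1 and JAZ9 are darkest in salted shoots, whereas in roots the dots lie on LOX3, CYP74A1, CYP74A4, JAZ6, JAZ10 and JAZ13 and on the reductases OPR1 and OPR5.

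In roots the calls fell on other genes than the 4 described above. Under salt, LOX3, a lipoxygenase, was the only gene called, at -1.49 in PL177 (adjusted p = 0.00196) and -1.43 in IR64 (adjusted p = 0.0027), 1 of 34 in each, where 0.606% and 0.592% of all probe sets were called lower and 0.73% and 0.608% higher. Under salt+ABA, 6 of the 34 genes were called lower than in the control in each genotype, against 0.906% of all probe sets in PL177 and 0.798% in IR64. The median change of the list was -0.22 for PL177 and -0.17 for IR64, beside medians of -0.0015 and 0.0029 over all probe sets.

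JAZ13 had the largest fall in roots. It averaged 26.7 ± 3.06 under salt+ABA and 259 ± 72.0 in the control in PL177 (log2 change -2.35, adjusted p = 0.0161), and 38.7 ± 2.03 under salt+ABA and 459 ± 131 in the control in IR64 (-2.78, adjusted p = 0.00695). JAZ10 changed by -1.97 in PL177 (adjusted p = 0.0287) and -2.41 in IR64 (adjusted p = 0.0111). Its probe set is of the kind that the array's naming marks as shared by more than 1 transcript, and JAZ10, JAZ11 and JAZ9 are direct neighbours on chromosome 3, so its value may not be of JAZ10 alone. The other probe set of JAZ10 had -1.16 in PL177 (adjusted p = 0.143) and -1.61 in IR64 (adjusted p = 0.0476). LOX3 changed by -1.66 in PL177 (adjusted p = 0.000557) and -1.50 in IR64 (adjusted p = 0.00163), and CYP74A1 by -1.60 (adjusted p = 0.0117) and -1.29 (adjusted p = 0.0457). The other two were CYP74A4 (-1.21 in PL177 and -1.16 in IR64) and JAZ6 (-1.13 and -1.21).

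The reductase genes OPR5 (1.31, adjusted p = 0.00514) and OPR1 (1.18, adjusted p = 0.0121) were called higher under salt+ABA than in the control in PL177 roots, 2 of 34 where 1.1% of all probe sets were. None was called higher in IR64, where 0.875% were. Between salt+ABA and salt, OPR1 was called higher in roots of PL177 (1.52, adjusted p = 0.00391) and IR64 (1.17, adjusted p = 0.0221), 1 of 34 in each, against 0.327% and 0.33% of all probe sets. JAZ13 was called lower in PL177 (-2.19, adjusted p = 0.0405), 1 of 34 against 1.05%. In IR64, 3 of 34 were called lower against 0.975%, namely JAZ13 (-2.85, adjusted p = 0.00853), JAZ10 (-1.99, adjusted p = 0.0444) and CYP74A1 (-1.44, adjusted p = 0.0364). The leaf markers fell in the same comparison, as given for JAZ9.

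The sum of the 12 root marker probe sets moved in shoots, but 5 of them overlapped between the organs. In PL177 shoots all 12 summed to 7908 to 8396 under salt+ABA, 6326 to 7472 under salt and 10310 to 11887 in the control. In IR64 shoots the sum was 7342 to 8270, 6871 to 7790 and 12343 to 13142 in the same order. NIP2-2, the brightest of the 5 in shoots, was at 11.96 to 12.65 there and 11.75 to 12.31 in roots (log2 scale). These sums therefore do not show a change of root-specific genes alone. On all salted arrays, 6 of the 12 root marker probe sets were below all control arrays in PL177 and 4 in IR64, and 0 and 1 were above, where 27.9% and 20.5% of all probe sets did not overlap in either direction. On salt+ABA arrays 5 and 6 were below all control arrays and 1 and 3 above, against 24.9% and 24.5%. CM-LOX1, the member with the lowest root values, was at most 30.6 in any root array. The part of the root markers in the shoot values was not tested. In bulk organs, fewer cells of a type and less RNA per cell cannot be told apart.

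The likeness of the 4 genes among themselves, over the 12 group means, was highest for CM-LOX1 and JAZ8 (r = 0.96) and for CYP74A2 and JAZ9 (r = 0.95), and lowest for CYP74A2 and JAZ8 (r = 0.75). Over the 6 shoot groups alone it was 0.97 for CYP74A2 and JAZ9 and 0.47 for CYP74A2 and JAZ8. Over the 6 root groups it ran from -0.28 to 0.86. The top value was that of CYP74A2 with CM-LOX1, whose root intensities all lay below 32. Among the pairs without CM-LOX1 it ran from -0.28 to 0.29. These values describe groups that share organs and treatments and carry no test.

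Among 10785 probe sets named by 1 gene whose group means spanned more than 2-fold, those most alike in pattern were mostly genes known in the tables by identifier only. For CYP74A2 all 5 had r = 0.99, led by LOC4331082. For CM-LOX1 the 5 were LOC4333626, LOC4343616 with 2 probe sets, LOC4323896 and OsRSH3, all at r = 0.99 or more. For JAZ9 they were LOC4341119 (r = 0.99), LOC4339201, LOC4330959, ERG1 and HSF07 (0.98), and for JAZ8 LOC4341092 (0.99), LOC4339096, LOC4345657, LOC4331483 and LOC4325537. A second probe set of LOC4330959 was also among the 5 of CYP74A2, beside LOC4344182, LOC4350323 and LOC4325945. None of the 4 sets of 5 shared a probe set with the 5 listed as highest by Spearman's rho. For JAZ9 this rests on ties, since LOC4341119 was tied at rank 2 by rho (0.99) but not among those listed. The order among such close values therefore depends on the measure and on how ties are broken.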

How the data were processed

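Intensities of 57381 probe sets were deposited by the authors on a linear scale, 1 column for each of the 36 arrays. How they were summarised and normalized was not given in the sources used here. After 123 control probe sets had been removed, quantile normalization was run over the 18 arrays of each organ (over all 36 for comparisons of organs and for levels), and log2 was taken of each value plus 32. Models with 6 groups per organ were fitted with limma 3.58.1 (lmFit, eBayes) in R 4.3.3, and p-values were adjusted over all 57258 probe sets. The design foresaw log2 values or intensities. Tables and figures were made with Python 3.11.15, pandas 2.3.3 and matplotlib 3.10.9. The fit was tested on simulated data. For salt in PL177 shoots it found 94% of 2.5-fold, 90% of 3-fold and 100% of 8-fold changes, 50 probe sets each, with 1 false call among 57058. The simulated arrays gave each probe set the same spread in all groups and no effect of replicate number. JAZ8, by contrast, had an SD of 0.85 in control shoots of PL177 and 0.08 under salt+ABA. These rates therefore do not carry over to such genes.

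Probe sets were named through the annotation of the platform and the gene table of ASM3414082v1, and 22436 had 1 gene, 95 several and 34727 none. The member genes and the list were chosen with earlier results of these data known. The text names all members, up to 4 called list genes with the largest change in each direction per comparison, and the 5 probe sets most alike by Pearson's r. The 3 arrays per group limit the precision.

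The methods grew both genotypes in the same box but tie no array number to a box. Same-numbered arrays of PL177 and IR64 deviated together in 3 of 6 comparisons of the genotypes (every pair over 0.1), with r of 0.70 to 0.74 in control shoots, 0.58 to 0.69 in control roots and 0.15 to 0.50 in salted roots. Over all probe sets they did so in 0 of 12 comparisons of treatments, so the fits have no block. The alternatives were other pseudocounts (8, 128), median centring, the values as deposited, a filter (over 64 in 3 arrays), trend and robust fits, the methods' t-test, other sets of arrays, replicate blocks, leaving out each array, any probe set of a list gene, and Spearman's rho. No member had another probe set.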

Additional observations from a re-analysis of the deposited data

Results flagged for a closer look

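The salt response differed between shoots and roots by the test of the difference itself for CYP74A2 (-3.50 in PL177 and -3.28 in IR64, shoots minus roots) and JAZ9 (-3.70 and -4.73). The CYP74A2 response to salt+ABA, set against control, differed as well (-2.77 in PL177, -2.54 in IR64). Set against salt, the response to salt+ABA differed for JAZ9 of IR64 (2.91), a call that was lost with only the arrays compared (adjusted p = 0.0508). CM-LOX1 was left out because its root values lay below 32 on all arrays. The arrays of all 12 groups came in sets of 3, so single arrays were not tested for standing apart.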

How the results depend on the processing

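All values here are log2 changes. The fall of CYP74A2, CM-LOX1 and JAZ9 in salted shoots kept its direction under every alternative run. The methods' t-test, which uses only the spread of the arrays compared, made all 12 shoot calls of the 4 genes at an unadjusted p of 0.05 and 2-fold, and 15 in all. After Benjamini-Hochberg adjustment 1 was left, CYP74A2 for salt+ABA against control in PL177 (adjusted p = 0.0423). The values not called then, with the same changes, were -4.00 and -4.06 for CYP74A2, -3.16 and -2.98 for CM-LOX1 and -3.14 and -4.23 for JAZ9 under salt in PL177 and IR64, -2.15 and -2.65 for JAZ9 under salt+ABA, -3.45 for CYP74A2 under salt+ABA in IR64, and 1.78 and 2.07 for CM-LOX1 in salt+ABA against salt. In shoots the adjusted t-test called few probe sets of the whole array either. Salted PL177 shoots had none called against their control, and salted IR64 shoots had 31 higher and 9 lower. For salt+ABA against control, PL177 had 5 higher and 16 lower, and IR64 had none higher and 20 lower. For salt+ABA against salt, PL177 had 61 higher and 58 lower, and IR64 had 27 higher and 92 lower. The losses in shoots are therefore not particular to these genes. In roots this t-test called 441 higher and 313 lower in PL177 and 310 and 260 in IR64 for salt+ABA against control. For salt+ABA against salt it called 75 and 357 in PL177 roots and 29 and 9 in IR64 roots. For salt against control it called 6 and 2 in PL177 roots and 7 and 3 in IR64 roots. The causes of the changes below were not tested.

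With only the arrays compared, CM-LOX1 under salt in IR64 shoots was not called (-2.99), nor was its difference between organs (-2.71), which rests on dim root values, whereas its change under salt+ABA in PL177 shoots was (-1.38), as it was with all 36 arrays in 1 fit (-1.34). JAZ8 for salt+ABA against salt in PL177 shoots was called with only the arrays compared (1.44), all 36 arrays (1.40), a filter on dim probe sets (1.45) and a random replicate block (1.45), and JAZ9 in IR64 shoots with all 36 arrays (1.54). With a pseudocount of 8, salt+ABA against control in IR64 roots was called for CYP74A2 (-1.02) and CM-LOX1 (-1.14), and JAZ9 for salt+ABA against salt there (-1.57), as with the filter (-1.35). Among the settings that keep all arrays, some turned the sign of values that were not called. These values were JAZ8 in PL177 roots for salt (0.058 with median centring, 0.039 as deposited), salt+ABA against control (0.013 and 0.0002) and against salt (0.0049 with a pseudocount of 8), JAZ9 in salted IR64 shoots against roots (-0.020 with a pseudocount of 8, -0.027 as deposited) and CM-LOX1 for the organ difference under salt+ABA in IR64 (0.24 with a pseudocount of 8).

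Without both shoot control arrays numbered 2, chosen after seeing the data, JAZ8 was called under salt (-1.62 in PL177, -1.44 in IR64) and for salt+ABA against salt (1.45 and 1.18), CM-LOX1 was called under salt+ABA in PL177 (-1.58), and JAZ9 there was not (-1.92). JAZ8 under salt+ABA against control turned to -0.17 in PL177 and -0.26 in IR64, and its organ difference in PL177 to -0.12.

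A replicate block was fitted although, over all probe sets, the numbers did not pair the treatments. For JAZ8 itself the array numbered 2 was the lowest in all 8 salt and control groups. With this block JAZ8 was called under salt in PL177 shoots (-1.12), for salt+ABA against salt in PL177 (1.45) and IR64 (1.18) and for the organ difference under salt in IR64 (-1.39), and CM-LOX1 under salt+ABA in PL177 shoots (-1.38). The block changed no call between the genotypes.

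Leaving out single arrays gave these ranges. In shoots, the JAZ8 change under salt in PL177 ran from -1.62 to -0.80 (called without control replicate 2), and for salt+ABA against salt from 1.14 to 1.79 (called without salt replicate 1 or control replicate 2 of PL177, or control replicate 2 or 3 of IR64). CM-LOX1 for salt+ABA against salt ran from 1.39 to 2.21 in PL177 and from 1.66 to 2.54 in IR64, and JAZ9 for salt+ABA against control from -2.425 to -1.92 in PL177 and from -2.84 to -2.54 in IR64. JAZ8 for salt+ABA against control ran from -0.17 to 0.59 in PL177 and from -0.26 to 0.52 in IR64, and its organ difference from -0.12 to 0.74 and from -0.63 to 0.17. In PL177 roots, JAZ8 ran from -0.40 to 0.34 under salt, from -0.40 to 0.20 for salt+ABA against control and from -0.39 to 0.34 against salt, CM-LOX1 from -0.17 to 0.011 under salt and from -0.15 to 0.020 for salt+ABA against salt, and JAZ9 from -0.37 to 0.12 for salt+ABA against control. In IR64 roots, JAZ8 ran from -0.49 to 0.33 and JAZ9 from -1.67 to -0.70 for salt+ABA against salt (JAZ9 was called without salt replicate 1 or 2), and JAZ9 from -0.04 to 0.94 under salt. JAZ9 in salted IR64 shoots against roots ran from -0.42 to 0.72.

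The counts of list genes moved more. Over the alternatives, 0 to 9 genes were called under salt in PL177 shoots (3 as reported) and 0 to 10 in IR64 shoots (5), with the lowest from the adjusted t-test and the highest without both control arrays numbered 2. In roots, 4 to 9 were called for salt+ABA against control in PL177 (8) and 3 to 7 in IR64 (6), and 0 to 4 (2) and 0 to 8 (4) for salt+ABA against salt. In the other comparisons the highest count was 4. Dim signal limits CM-LOX1 in roots, and 3 arrays a group limit JAZ8 and JAZ9.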
